A study of Mus musculus with 12 samples.

Results

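The 40 genes described here encode heat shock proteins and cytosolic chaperones, together with 3 close mitochondrial relatives and the transcription factors Hsf1 and Hsf2. They were taken by gene symbol from the 32419 genes listed in the deposited tables, and all 40 were found. RNA-seq was carried out on primary brain endothelial cells (BECs) of C57BL/6 mice that either carried cortistatin (Cort+/+) or lacked it (Cort-/-), and each replicate was a culture pooled from 3 mice. Under normoxia and normoglycemia (NX/NG) the cultures had 21% oxygen and 5.5 mM glucose for 24 h, whereas oxygen-glucose deprivation and reoxygenation (OGD-R) meant 4 h at 1% oxygen without glucose, followed by 20 h of recovery, so all libraries were made 24 h after the start. Of 12 samples listed, 10 had a column in the tables: 3 Cort+/+ and 2 Cort-/- libraries in each environment. The labels also give a stroke model (MCAO) for every sample, while the cells were exposed in culture. Adult brain microvessels were the source, puromycin was used to enrich the endothelial cells, and nothing was measured during the deprivation itself.

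Chaperones hold unfolded proteins and help them to fold. The HSP70 family works in cycles driven by ATP, J proteins bring in the client and BAG and HSP110 proteins release the nucleotide, while HSP90 and its co-chaperones finish the maturation of kinases and steroid receptors. Small heat shock proteins bind unfolding proteins without ATP, and the chaperonin TRiC folds actin and tubulin. When misfolded protein accumulates, the factor HSF1 binds inverted repeats of the unit GAA in promoters and raises the inducible genes. Ischemia is a classical trigger of this response in brain.

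Between 12386048 and 12390428 reads per library were recovered from the deposited RPKM values (reads scaled to gene length and library size). The 40 genes took 0.666% to 0.857% of them. The paper reports a higher mean number of paired-end reads, so these totals are not the sequencing depth. Why they differ, and why they are nearly equal between libraries, was not tested. Cort had 0 reads in all 4 Cort-/- libraries and 0 to 2 reads in the 6 Cort+/+ libraries, too few to check the genotype labels. A pair of OGD-R libraries stood apart: the ribosomal transcript Rn18s-rs5 took 0.0775% of the reads in Cort+/+ replicate 1 and 0.0951% in Cort-/- replicate 3, against 7.64% to 15.8% in the other 8 libraries, so results were also computed without that pair. Endothelial markers summed to 870 to 1351 RPKM and were all above 0, whereas astrocyte, oligodendrocyte, neuron and microglial markers each summed to less than 1 RPKM in every library. Among smooth muscle markers Acta2 was at 630 to 1080 RPKM and Tagln at 358 to 684 RPKM. Actg2 (6.52 to 57.8) and Cnn1 (6.08 to 16.4) were far lower. Myh11 (0.506 to 2.11) and Des (0.0863 to 0.369) were lower still. Fibroblast markers summed to 62.8 to 93.6 RPKM in the Cort-/- NX/NG libraries and to 157 to 279 RPKM in the other 8, and pericyte markers to 7.59 to 10.2 against 15.3 to 22.9. Fewer cells of a type and less RNA per cell cannot be told apart in bulk samples.

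The promoters were examined for heat shock elements because these are what the members might share beyond their names. The element searched on both strands was 3 inverted units, GAA, TTC and GAA or TTC, GAA and TTC, each parted from the next by any 2 bases. The windows were of 300 bases (250 before and 50 after the start site) from RefSeq on GRCm38.p6, and 33 of the 40 genes had an entry. Hspa8, Hspa9, Hspa13, Cryab, Hsp90aa1, Hsp90ab1 and Hsf1 had none, so their promoters were not searched. It was present in 7 of 44 member promoters (15.9%), those of Hsph1, Chordc1, Dnajb6, Hspd1 and Hspe1, and in 0.603% of all 32851 promoters. The shorter pair of units, GAANNTTC or TTCNNGAA, which also lies within the longer element, was present in 18 of the 44 (40.9%) and in 15.1% of all. The stretches below show the matched bases in capitals with flanking sequence. Those of Hsph1 (chr5:149636286-149636360, minus strand) and Chordc1 (chr9:18292203-18292296, plus strand) hold the 3-unit element just after the start site and across it, respectively. That of Hspd1 (chr1:55087999-55088136, minus strand) lies between Hspd1 and Hspe1, which are transcribed in opposite directions, so 1 element falls in both promoters, 144 bases before the start of Hspd1 and 89 before that of Hspe1. The Hspa1a stretch (chr17:34972193-34972320, minus strand) holds only the pair of units, 104 bases before the start. The same 128 bases precede Hspa1b.
Hsph1: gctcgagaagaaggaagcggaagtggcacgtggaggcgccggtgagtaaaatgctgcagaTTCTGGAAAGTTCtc
Chordc1: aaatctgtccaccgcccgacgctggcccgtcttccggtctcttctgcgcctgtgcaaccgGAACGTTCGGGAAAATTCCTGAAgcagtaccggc
Hspd1: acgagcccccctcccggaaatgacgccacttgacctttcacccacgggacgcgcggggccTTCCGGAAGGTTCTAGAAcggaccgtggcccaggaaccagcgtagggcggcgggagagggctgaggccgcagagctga
Hspa1a: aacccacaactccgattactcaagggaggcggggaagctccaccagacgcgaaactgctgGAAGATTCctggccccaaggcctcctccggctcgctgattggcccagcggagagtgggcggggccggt

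At rest and after injury alike, the constitutive chaperones dominated and the stress-inducible HSP70 genes stayed at or below 2.34 RPKM. Library values below are deposited RPKM, with the Cort+/+ replicates 1, 2 and 3 first and then the Cort-/- replicates, 1 and 2 under NX/NG and 1 and 3 after OGD-R. Levels of different genes depend on the gene lengths in the tables. Hspa8, the constitutive cytosolic HSP70, was at 297, 321 and 301 RPKM in Cort+/+ and 316 and 327 in Cort-/- cells under NX/NG, and at 325, 346 and 294 against 293 and 364 after OGD-R. Its groups overlapped throughout, and 41.1% of the 40-base words of its transcripts occur in other genes, mainly Gm15459. Hspa1a, one of the inducible HSP70 genes, was at 0.495, 0.436 and 0.234 RPKM in Cort+/+ and 0.3002 and 0.133 in Cort-/- cells under NX/NG, and at 1.23, 0.668 and 0.677 against 0.431 and 0.716 after OGD-R, from 5 to 50 reads a library. Hspa1b, its near copy, was at 2.27, 1.68 and 1.48 RPKM against 1.07 and 1.18 under NX/NG, and at 2.34, 1.70 and 1.58 against 0.943 and 1.99 after OGD-R. Thus Hspa8 stood 91.2 to 249.03 times above the summed level of the inducible pair within a library. Assignment between Hspa1a and Hspa1b is uncertain, since 63.1% of the 40-base words of the Hspa1a transcripts occur in other genes, nearly all of them in Hspa1b. How such reads were counted is not given. The levels of both genes, their sum and its ratio to Hspa8 are therefore uncertain as well.

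The remaining HSP70 and HSP110 genes covered a wide range of levels. Hspa12b, a distant HSP70 relative known from endothelium, was at 24.7, 25.5 and 33.2 RPKM in Cort+/+ and 33.6 and 34.5 in Cort-/- cells under NX/NG, and at 22.3, 24.4 and 30.5 against 32.5 and 29.6 after OGD-R. Hspa13, a microsomal HSP70, had a median of 7.46 RPKM over the 10 libraries, and Hspa2, best known from germ cells, 2.74 RPKM. Hsph1 (HSP105), a nucleotide exchange factor of HSP70, was at 10.4, 10.1 and 11.6 RPKM against 12.7 and 12.4 under NX/NG, and at 10.4, 10.9 and 9.83 against 10.3 and 10.6 after OGD-R. The Cort-/- NX/NG pair was the highest of the 4 groups for this gene. Its relatives Hspa4 and Hspa4l had medians of 58.5 and 3.29 RPKM.

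Hsp90ab1, the constitutive cytosolic HSP90, had the highest level of the 40 genes in every library. It was at 558, 568 and 543 RPKM in Cort+/+ and 565 and 571 in Cort-/- cells under NX/NG, and at 593, 616 and 563 against 588 and 607 after OGD-R. The more inducible form Hsp90aa1 was at 97.7, 97.6 and 96.6 RPKM against 95.7 and 98.7 under NX/NG, and at 106, 101 and 105 against 91.1 and 108 after OGD-R. The ratio of Hsp90ab1 to Hsp90aa1 ran from 5.36 to 6.45. Reads of Hsp90aa1 are uncertain, as 49.4% of its 40-base words occur in other genes, mainly the pseudogene Gm12346.

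The co-chaperones of HSP90 were all expressed. Stip1 (HOP), which links HSP70 to HSP90, was at 51.3, 53.4 and 51.6 RPKM against 56.6 and 56.1 under NX/NG, and at 60.003, 57.2 and 55.6 against 53.3 and 57.5 after OGD-R. Ahsa1 (AHA1), an activator of the HSP90 ATPase, was at 12.95, 13.9 and 13.2 RPKM against 13.4 and 14.2 under NX/NG, and at 15.3, 16.2 and 14.7 against 13.3 and 16.7 after OGD-R. Fkbp4 (FKBP52), an immunophilin of steroid receptor complexes, was at 18.6, 17.4 and 17.6 RPKM against 16.5 and 15.5 under NX/NG, and at 20.8, 22.7 and 20.5 against 16.6 and 21.6 after OGD-R. Ptges3 (p23) and Chordc1 had medians of 34.0 and 7.30 RPKM.

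Among the J proteins, Dnajb1 (HSP40), the inducible partner of HSP70, was at 14.7, 14.01 and 14.2 RPKM against 13.8 and 14.3 under NX/NG, and at 15.0, 17.2 and 15.2 against 15.1 and 16.6 after OGD-R. Dnaja2 was at 49.4, 49.2 and 54.1 RPKM against 51.4 and 58.0, and after OGD-R at 45.9, 54.1 and 52.3 against 53.6 and 45.7. Dnajb6, which suppresses aggregation, was at 8.15, 7.65 and 7.99 RPKM against 8.17 and 8.85, and after OGD-R at 7.47, 8.97 and 8.75 against 8.07 and 7.33. Group means ran from 14.02 to 15.8 RPKM for Dnajb1, from 49.6 to 54.7 for Dnaja2 and from 7.70 to 8.51 for Dnajb6, with overlap between most groups. Dnaja1, Dnajb4 and Dnajb2 had medians of 12.9, 8.55 and 5.93 RPKM.

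Bag3, a BAG protein that couples HSP70 to small heat shock proteins and autophagy, was at 27.3, 26.7 and 25.9 RPKM in Cort+/+ and 23.9 and 21.7 in Cort-/- cells under NX/NG, and at 29.0, 26.5 and 23.6 against 24.02 and 26.9 after OGD-R. The genotypes were separate under NX/NG and mixed after OGD-R. Bag2, an inhibitor of the ubiquitin ligase CHIP, was at 7.63, 6.17 and 5.53 RPKM against 5.90 and 4.89, and after OGD-R at 8.24, 7.74 and 6.18 against 5.27 and 6.76. Bag1 had a median of 60.9 RPKM.

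The small heat shock proteins held the most variable gene of the list above 1 RPKM. Cryab (alpha-B-crystallin), a chaperone of intermediate filaments that is abundant in muscle and lens, was at 92.4, 86.2 and 80.7 RPKM in Cort+/+ and at 43.3 and 36.0 in Cort-/- cells under NX/NG. After OGD-R it was at 112, 112 and 98.2 RPKM in Cort+/+ cells and at 43.7 and 116 in Cort-/- replicates 1 and 3. All 6 Cort+/+ libraries were above 80 RPKM, 3 of 4 Cort-/- libraries were below 50 RPKM, and the exception was the highest library of all. Hspb1 (HSP25), a regulator of actin, was at 102, 109 and 116 RPKM against 138 and 90.1 under NX/NG, and at 121, 133 and 111 against 91.2 and 131 after OGD-R, with no order among the groups. Hspb8, the partner of Bag3, was at 45.0, 40.4 and 39.3 RPKM against 38.8 and 36.4, and after OGD-R at 43.2, 48.3 and 42.3 against 39.1 and 40.7, so Cort-/- was lower in both environments. Hspb6 and Hspb7 had medians of 7.07 and 0.816 RPKM. For Hspb1, 50.6% of the 40-base words also occur in the pseudogene Hsp25-ps1, and for Cryab none occur elsewhere.

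Of the mitochondrial genes, Hspa9 (mortalin), the HSP70 of the import motor, was at 69.3, 73.0 and 70.3 RPKM against 69.5 and 70.9 under NX/NG, and at 65.1, 70.6 and 64.0 against 66.5 and 67.8 after OGD-R. Hspd1 (HSP60) was at 81.3, 78.1 and 77.2 RPKM against 71.6 and 70.8, and after OGD-R at 70.7, 84.9 and 78.2 against 67.8 and 73.5. Its co-chaperonin Hspe1 (HSP10) was at 31.7, 31.0 and 30.3 RPKM against 27.4 and 30.1, and after OGD-R at 31.0, 39.3 and 39.9 against 28.1 and 32.3. The ratio of Hspd1 to Hspe1 was 1.96 to 2.61, although 44.2% and 21.4% of their respective 40-base words occur in other genes. The TRiC subunits Cct2, Cct5, Cct8, Tcp1 and Cct3 had medians of 129, 90.8, 76.9, 61.3 and 31.4 RPKM.

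Hsf1, the main heat shock factor, was at 3.99, 4.21 and 4.43 RPKM in Cort+/+ and 4.20 and 3.79 in Cort-/- cells under NX/NG, and at 4.59, 4.59 and 4.22 against 4.18 and 4.14 after OGD-R. Hsf2 had a median of 1.76 RPKM. HSF1 is regulated mainly on the protein, which was not measured.

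**Figure D1:**
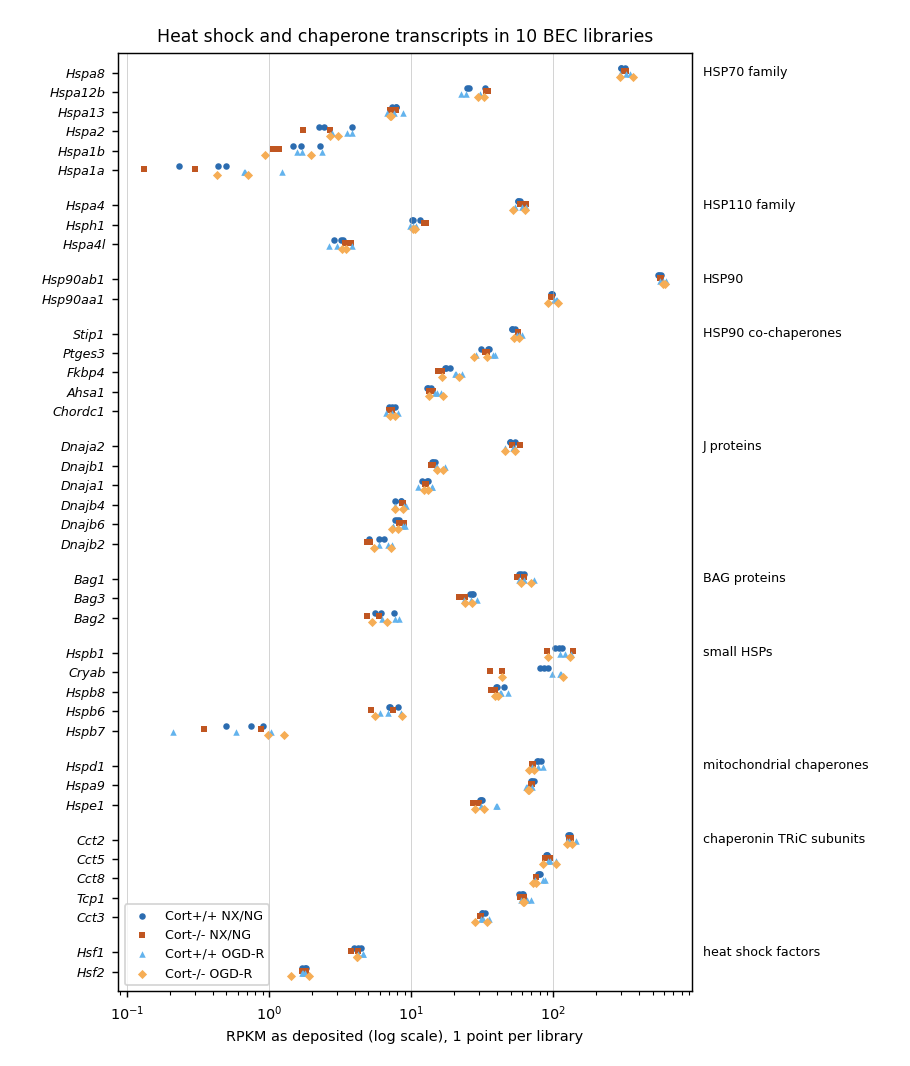
Deposited RPKM on a log axis for the 40 genes, ordered by family, with 1 point per library and a colour and shape for each of the 4 groups. Hsp90ab1 and Hspa8 lie highest, Hspa1a and Hspb7 lowest, and for most genes the groups lie on top of each other, with Cryab spread from 36.0 to 116 RPKM.

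On a scale common to all 10 libraries, 38 genes had a mean of at least 1 RPKM and varied little. The highest library was a median of 1.27 times the lowest, against 1.45 for all 13789 genes tested, and it was less than 1.5 times in 31 of 38 members (81.6%) against 56.1% of all genes. Among genes of at least 10 RPKM the medians were 1.26 for 26 members and 1.35 for 4723 genes. Hsp90ab1 varied least of the members (1.09 times), followed by Stip1 (1.13 times), and Cryab (3.05 times) and Hspa1b (2.53 times) most.

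The effect of ischemia-like injury was asked first, with all 4 groups in one limma fit on jointly scaled log2(RPKM + 0.1) values. Averaged over the genotypes, no rise of the heat shock genes was detected 20 h into reoxygenation: 0 of 38 members were called at an adjusted p of at most 0.05, against 0.0435% of 13789 genes, and the median member changed by -0.02 on the log2 scale against 0.00 for all genes. Before adjustment 2 of the 38 members, both lower, had p under 0.05 (background 10.5%), and limma-voom called 0 members (background 0.102%). Hspa1a, too low to be among the 38, was higher after OGD-R by 0.98 when every gene was kept (95% interval 0.29 to 1.66, unadjusted p = 0.0106, adjusted p = 0.542). Of the 38 changes, 36 were within 0.25 on the log2 scale and 37 had a 95% interval within a change of 1 (92.6% of all genes had such an interval). The intervals were -0.15 to 0.12 for Hsp90aa1, -0.14 to 0.15 for Hsp90ab1, -0.22 to 0.16 for Hspa8, -0.05 to 0.21 for Dnajb1, -0.34 to 0.31 for Hspb1 and -0.14 to 0.14 for Hsf1. For these 6 genes a doubling, a log2 change of 1, lay outside the interval.

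Hsph1 and Hspa9 had the lowest p-values. On the joint scale Hsph1 had means of 10.95 ± 0.857 RPKM (SD, n = 3) in Cort+/+ and 12.9 ± 0.233 (n = 2) in Cort-/- cells under NX/NG, and of 10.1 ± 0.516 (n = 3) and 10.2 ± 0.217 (n = 2) after OGD-R. Its change over both genotypes was -0.23 (SE 0.06, adjusted p = 0.310), and -0.24 (adjusted p = 0.521) without the pair of libraries low in Rn18s-rs5. Hspa9 had means of 72.6 ± 1.88 (n = 3) and 72.2 ± 1.03 (n = 2) RPKM under NX/NG and of 64.9 ± 3.46 (n = 3) and 65.4 ± 0.927 (n = 2) after OGD-R. On this scale it was the only one of the 38 members whose 5 OGD-R libraries all lay on one side of the 5 NX/NG libraries (background 2.07%), with a change of -0.15 (SE 0.05, adjusted p = 0.378). On the deposited values, normalized separately for each environment, its libraries overlapped, and those of Dnajb1 did not, being at most 14.7 RPKM under NX/NG and at least 15.0 after OGD-R. Fkbp4 (0.17, SE 0.08, adjusted p = 0.485), Cryab (0.51, SE 0.23, adjusted p = 0.488) and Dnaja2 (-0.15, SE 0.08, adjusted p = 0.514) came next, and none passed the test. The Cryab value was 0.86 (adjusted p = 0.0374) without Cort-/- OGD-R replicate 1, 0.16 (adjusted p = 0.838) without replicate 3 and 0.14 (adjusted p = 0.769) without the pair low in Rn18s-rs5, a lone library then being assumed to vary like the others.

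Within Cort+/+ cells 0 members were called after OGD-R (background 0.0145%), and the median change was 0.00 against 0.01 for all genes. On the joint scale Ahsa1, Fkbp4 and Cryab were higher and Hspa9 lower in all 3 OGD-R libraries, 4 of 38 members against 12.9% of all genes. This too depended on the scale. On the deposited values Hspa9 overlapped, and Hsp90aa1, Stip1, Dnajb1 and Cct5 were higher without overlap beside Ahsa1, Fkbp4 and Cryab. The changes with the lowest p were Hspa9 (-0.16, SE 0.06, adjusted p = 0.766), Fkbp4 (0.18, SE 0.10, adjusted p = 0.860), Hsph1 (-0.11, SE 0.07, adjusted p = 0.860), Hspe1 (0.16, SE 0.11, adjusted p = 0.860) and Ahsa1 (0.13, SE 0.09, adjusted p = 0.860). Hspa9 alone had an unadjusted p under 0.05 (background 5.95%), and limma-voom called 0 members (background 0%).

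In Cort-/- cells 0 members were called (background 0.00725%) and the median was -0.05 against -0.01. On the joint scale 13 members were lower and 2, Dnajb1 and Dnajb2, higher in both OGD-R libraries. That is 15 of 38 against 34.3% of all genes (18% lower and 16.3% higher). The lean to lower values depended on the scale. On the deposited values, normalized separately for each environment, Hspa12b, Hsph1, Dnajb6 and Hspa9 stayed lower and the rest of the 13 overlapped. Hspa2, Hsp90ab1, Fkbp4, Cryab, Bag3 and Hspb8 were there higher without overlap, as were Dnajb1 and Dnajb2. The lowest p belonged to Hsph1 (-0.34, SE 0.09, adjusted p = 0.871), the 1 member with an unadjusted p under 0.05 (background 5.19%), and limma-voom called 0 members (background 0%). Cryab (0.77, SE 0.36), Dnajb6 (-0.22, SE 0.11), Hspa9 (-0.14, SE 0.08) and Dnaja2 (-0.22, SE 0.12) followed at adjusted p = 0.871. The Cryab value rested on single libraries: without Cort-/- OGD-R replicate 3 it was 0.07 (adjusted p = 1.00), and without replicate 1 it was 1.48 (adjusted p = 0.0426).

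The difference between the genotypes in their response to OGD-R, an interaction term in the same fit, was called for 0 of 38 members and 0% of 13789 genes. No member had an unadjusted p under 0.05 (background 1.66%), limma-voom called 0 members (background 0%), and the median was -0.05 against -0.02. Values with the lowest p were -0.22 (SE 0.12) for Hsph1, -0.18 (SE 0.09) for Stip1, -0.23 (SE 0.14) for Dnajb6, 0.17 (SE 0.14) for Bag3 and 0.53 (SE 0.47) for Cryab, each with an adjusted p of 1.00. The interval of Cryab, -0.53 to 1.60, allows a difference of over 2-fold.

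Hspa1a and Hspb7 averaged under 1 RPKM and were fitted only when every gene with a value above 0 was kept. Hspa1a was higher in each OGD-R group than in the NX/NG group of its genotype with no overlap. Such separation, in either direction, held for 12.9% of genes averaging at least 1 RPKM in Cort+/+ and 34.3% in Cort-/- cells. The change of Hspa1a over both genotypes was 0.98 (SE 0.30, adjusted p = 0.542). On the joint scale the level went from 0.398 ± 0.140 RPKM (n = 3) to 0.835 ± 0.312 (n = 3) in Cort+/+ and from 0.223 ± 0.122 (n = 2) to 0.559 ± 0.196 (n = 2) in Cort-/- cells. In each genotype the highest OGD-R value was in the library low in Rn18s-rs5. Hspb7 had a change of 0.19 (SE 0.39, adjusted p = 0.963).

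**Figure D2:**
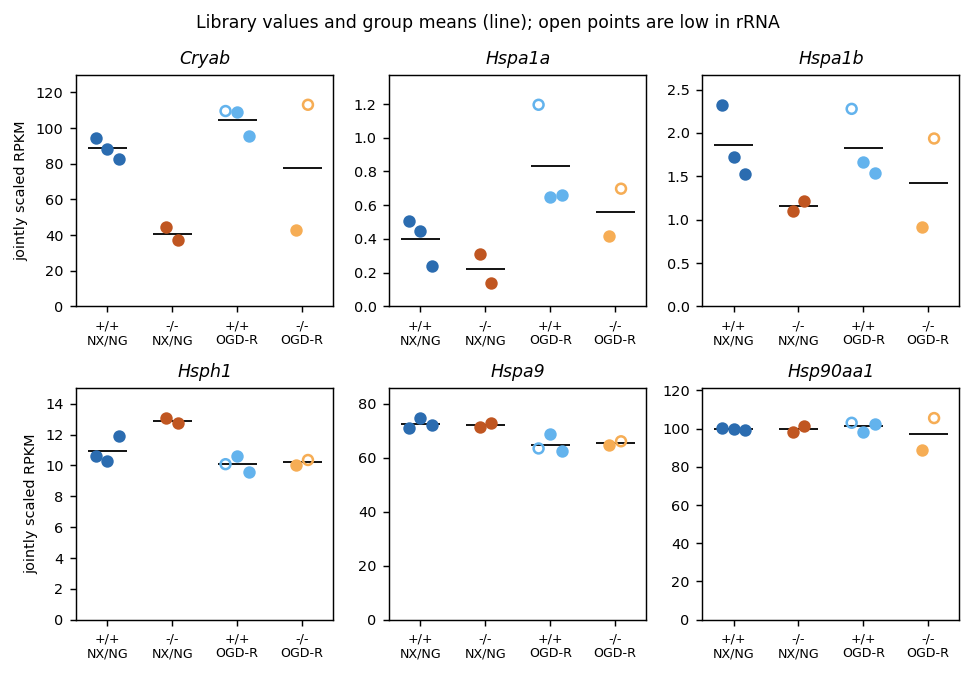
Jointly scaled RPKM of 6 members, 1 point per library, with the group mean as a line and open points for the pair of libraries low in Rn18s-rs5; each axis starts at 0. Cryab is low in 3 of 4 Cort-/- libraries, Hspa9 is lower in all OGD-R libraries on this scale and Hsp90aa1 stays near 100 RPKM.

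Whether loss of cortistatin altered the chaperones was compared next within each environment, on deposited RPKM. Under NX/NG Cryab was the member that differed most, at 86.4 ± 5.89 RPKM (SD, n = 3) in Cort+/+ and 39.6 ± 5.15 (n = 2) in Cort-/- cells, a log2 change of -1.13 (SE 0.10, 95% interval -1.39 to -0.86). Its adjusted p was 0.0973 by limma and 0.0201 by limma-voom, so the call depends on the test. With all 4 groups in one fit the adjusted p was 0.328. That fit also used the joint scale and its own gene set, and the cause was not tested. In all, 0 of 38 members were called by limma (background 0%) and 1, Cryab, by limma-voom (background 0.372%). The median member changed by -0.01 against 0.01 for all genes.

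Before adjustment 6 members had p under 0.05 (background 13.3%). Of these 1, Hsph1, was higher in Cort-/- (0.23, SE 0.08, adjusted p = 0.345), against 5.49% of all genes. The other 5 were lower, against 7.81% of all genes: Cryab, Bag3 (-0.22, SE 0.07, adjusted p = 0.311), Hspa1b (-0.62, SE 0.22, adjusted p = 0.351), Hspd1 (-0.15, SE 0.05, adjusted p = 0.355) and Fkbp4 (-0.16, SE 0.06, adjusted p = 0.368). Groups did not overlap in 15 of 38 members against 32.9% of all genes. These were Hsph1, Hspa4l, Hspa12b, Stip1, Dnajb4 and Dnajb6, higher in Cort-/-, and Cryab, Hspb8, Bag3, Hspa1b, Hspd1, Hspe1, Fkbp4, Cct3 and Cct8, lower. Intervals stayed within a change of 1 for 35 of 38 members. Some markers of other cell types were lower beside Cryab in these libraries, though none was called. Col1a1 changed by -1.35 (SE 0.23, adjusted p = 0.205) and Col1a2 by -1.41 (SE 0.24, adjusted p = 0.205), and these collagens make up most of the fibroblast sum, while the fibroblast marker Pdgfra was at 0.485 and 0.706 RPKM in Cort-/- against 0.319 to 0.366 RPKM in Cort+/+ cells. Of the pericyte markers Cspg4 changed by -1.91 (SE 0.28, adjusted p = 0.185) and Pdgfrb by -1.001 (SE 0.17, adjusted p = 0.205). Of the smooth muscle markers Actg2 changed by -1.81 (SE 0.23, adjusted p = 0.132), against -0.22 for Acta2 and 0.29 for Myh11. Endothelial markers were higher in 7 of 8 genes with a median of 0.29, among them Erg (0.51, SE 0.17, adjusted p = 0.334). Their part in the differences of Cryab and Hspa12b was not tested.

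After OGD-R no member differed detectably between the genotypes, and the errors were wide. Of 38 members 0 were called by limma (background 0%) and by limma-voom (background 0.00723%), 0 had an unadjusted p under 0.05 by limma (background 3.69%), and the median was -0.06 against -0.01. Cryab averaged 107 ± 8.03 RPKM (n = 3) in Cort+/+ and 79.9 ± 51.1 (n = 2) in Cort-/- cells, a change of -0.59 (SE 0.40, interval -1.57 to 0.39, adjusted p = 1.00). It was 0.11 without Cort-/- replicate 1 and -1.29 without replicate 3, and -1.26 (adjusted p = 0.409) without the pair low in Rn18s-rs5. Next came Hspe1 (-0.28, SE 0.15), Hspa12b (0.28, SE 0.16), Bag2 (-0.29, SE 0.18) and Hspb8 (-0.16, SE 0.11), each with an adjusted p of 1.00. Hspb8 and Hsf1 were lower in both Cort-/- libraries than in all 3 Cort+/+ libraries, 2 of 38 members against 16.1% of all genes.

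In Cort-/- OGD-R replicate 1, where Cryab was at 43.7 RPKM, the fibroblast markers summed to 161 RPKM and the pericyte markers to 15.3 RPKM. Both sums were lower than those of replicate 3 (206 and 17.6 RPKM), where Cryab was at 116 RPKM. The smooth muscle markers summed to 1001 RPKM in replicate 1 and 1503 RPKM in replicate 3, and each of them was lower in replicate 1. Acta2 was at 630 RPKM in replicate 1, the lowest of all libraries, and the epithelial marker Krt8 was at 11.9 RPKM there against 18.7 RPKM in Cort+/+ NX/NG replicate 2, 2.57 RPKM in Cort-/- NX/NG replicate 2 and under 1 RPKM in the others. Of the other epithelial markers, Krt18, Cdh1 and Epcam were also higher in Cort-/- OGD-R replicate 1 than in Cort-/- OGD-R replicate 3. Krt19 went the other way, at 5.38 against 11.4 RPKM. The part of these cell type markers in the Cryab level was not tested.

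**Figure D3:**
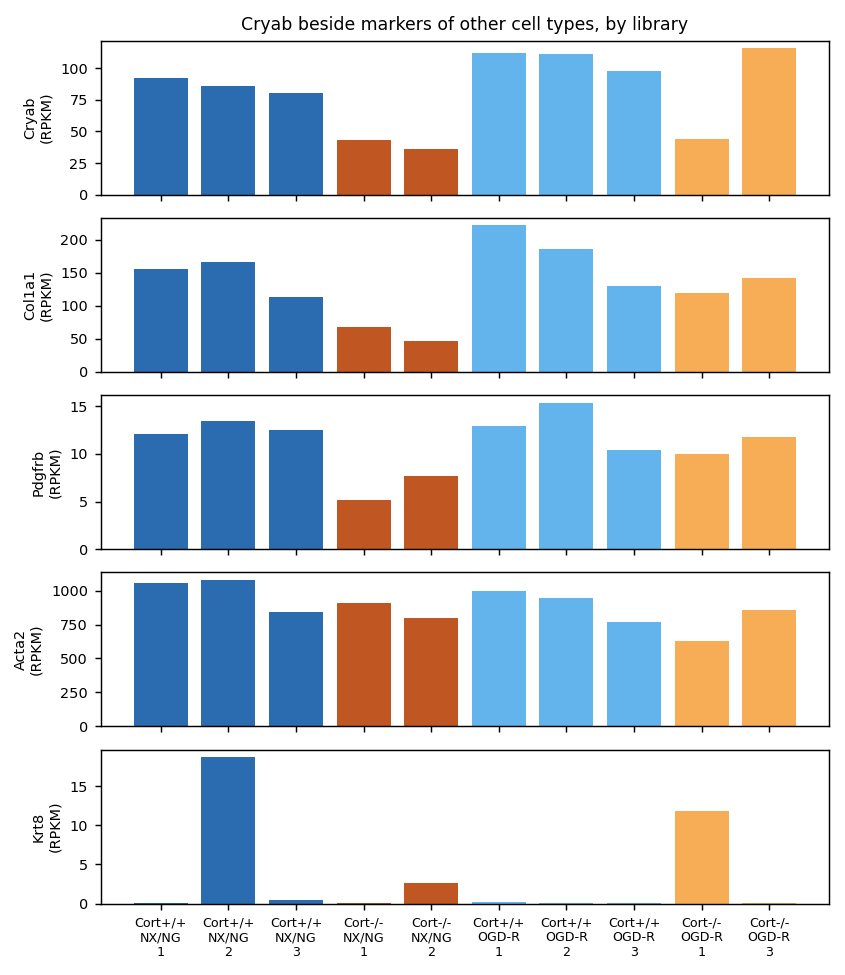
Deposited RPKM in each library for Cryab, the fibroblast marker Col1a1, the pericyte marker Pdgfrb, the smooth muscle marker Acta2 and the epithelial marker Krt8, each axis starting at 0. Cryab, Col1a1 and Pdgfrb are all low in the Cort-/- NX/NG libraries, whereas in Cort-/- OGD-R replicate 1 Cryab is at 43.7 RPKM with Col1a1 near the level of Cort+/+ OGD-R replicate 3.

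Averaged over both environments, 0 of 38 members were called for genotype by limma (background 0.196%) or limma-voom (background 0.914%), with a median of -0.02 against 0.00. Cryab changed by -0.86 (SE 0.23, interval -1.39 to -0.32, adjusted p = 0.176). Without Cort-/- OGD-R replicate 3 this became -1.21 (adjusted p = 0.0114), without the pair low in Rn18s-rs5 -1.19 (adjusted p = 0.0224), and without Cort-/- OGD-R replicate 1 -0.50 (adjusted p = 0.141). Hspa12b was higher (0.29, SE 0.11, adjusted p = 0.293), and Hspb8 (-0.15, SE 0.06, adjusted p = 0.343), Hspa1b (-0.51, SE 0.22, adjusted p = 0.355) and Hspd1 (-0.14, SE 0.06, adjusted p = 0.364) were lower, none of them past the test. With an unadjusted p under 0.05 were 4 members (background 14.1%), Cryab, Hspa12b, Hspb8 and Hspa1b. Beside Hspa12b, 6 of 8 endothelial markers were higher in Cort-/- cells with a median of 0.24, and Erg changed by 0.39 (SE 0.12, adjusted p = 0.213), and their part was not tested. On the joint scale Hspb8 was the 1 member with every Cort-/- library below every Cort+/+ library (background 3.02%). On the deposited values its libraries overlapped across environments. Cort-/- OGD-R replicate 3, at 40.7 RPKM, lay above Cort+/+ NX/NG replicates 2 and 3, at 40.4 and 39.3 RPKM.

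**Figure D4:**
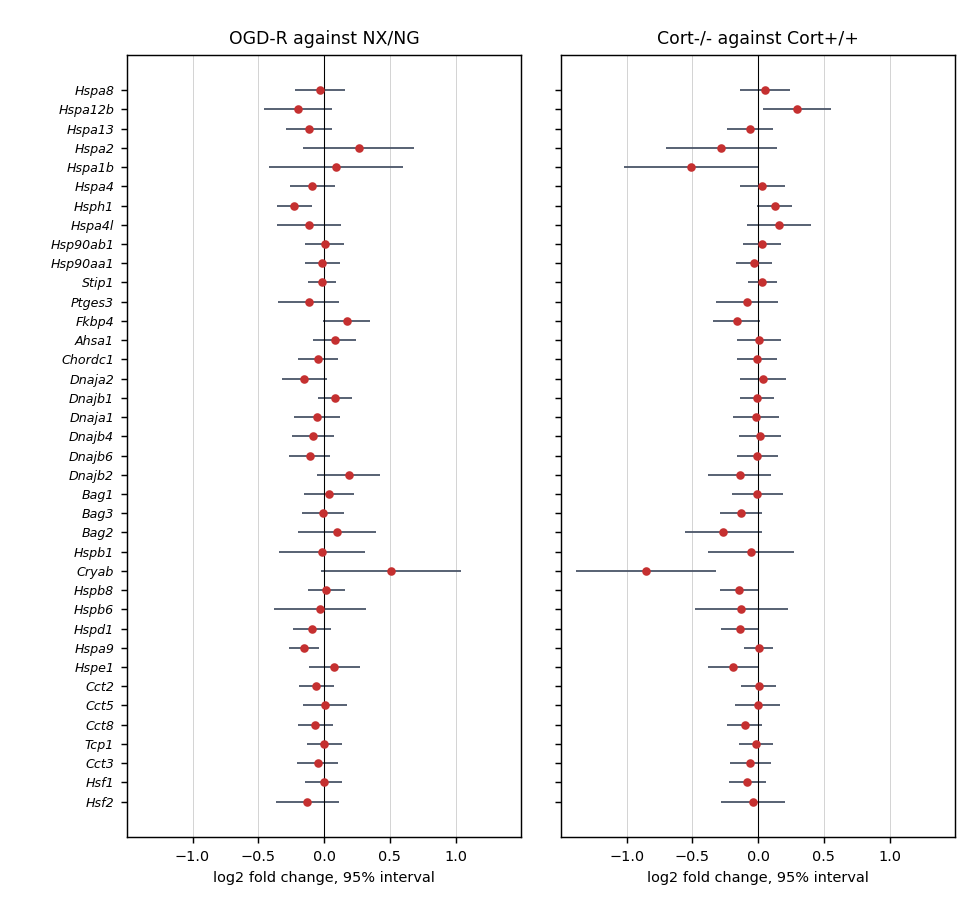
Log2 fold changes (points) with 95% intervals (lines) of the 38 tested members for OGD-R against NX/NG over both genotypes and for Cort-/- against Cort+/+ over both environments. Nearly all points lie within 0.25 of 0 in the first comparison, and Cryab, at 0.51 and -0.86, is farthest from 0 in both.

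Other chaperones were compared by lists of the remaining genes of the pathway. Of 24 further cytosolic chaperones, 0 were called in any of the 7 comparisons. Among them were prefoldin, the other TRiC subunits and the ubiquitin ligase Stub1 (CHIP). For OGD-R over both genotypes 2 had an unadjusted p under 0.05 (background 10.5%), and for genotype over both environments 1 (background 14.1%). For this list and those that follow, limma called at most 0.196% of all genes in any comparison. The lowest p after OGD-R over both genotypes belonged to the prefoldin subunit Pfdn6 (0.22, SE 0.07, adjusted p = 0.402) and to Stub1 (0.15, SE 0.06, adjusted p = 0.450), and the list median was 0.04. For genotype over both environments they were Fkbp5 (0.25, SE 0.09, adjusted p = 0.266), a glucocorticoid-inducible immunophilin, and a median of -0.04. Among 14 chaperones of the endoplasmic reticulum, the classical targets of the unfolded protein response, 0 were called, and for genotype under NX/NG 1 was higher and 3 lower at an unadjusted p under 0.05, against 5.49% and 7.81% of all genes. Hsp90b1 (GRP94) changed by -0.20 (SE 0.07, adjusted p = 0.334) in Cort-/- cells under NX/NG, with a list median of -0.09 against 0.01 for all genes, and after OGD-R over both genotypes the median was 0.01. Of 8 other mitochondrial chaperones and proteases 0 were called, with medians of 0.05 for OGD-R and 0.00 for genotype. Clpp, a matrix protease, had the lowest p for genotype (-0.15, SE 0.08, adjusted p = 0.476).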

How the data were processed

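RNA of primary BECs was sequenced as stranded mRNA libraries with paired reads, of 40 bases per the labels and longer in the paper, and 10 of 12 samples had a column in the deposited tables. The paper names reanalyzerGSE as the pipeline. The aligner, counter, genome build, annotation and strand setting are not given in the sources used here (the submitters' processing notes name edgeR), and neither is how reads of near-identical genes were assigned. The authors deposited RPKM values, with the 5 libraries of an environment in a table of their own. A further 10 columns, not matched to a sample, and the authors' fold changes, p-values and FDR were not used. Per gene length, at least 99.9958% of values were whole multiples of 1 read within 0.05, which gave the reads per library.

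For genotype within an environment, limma 3.58.1 (R 4.3.3, trend) was run on log2(RPKM + 0.1) of all mapped libraries of that table for genes averaging 1 RPKM or more. Since the tables were normalized separately, comparisons across environments used recovered reads of the 27321 genes in both, scaled together by trimmed means (TMM), with 4 groups in one fit. Adjusted p are Benjamini-Hochberg over all genes tested, with a threshold of 0.05, and fold changes on this scale understate those of low genes. limma-voom was used as an alternative, and count tests of edgeR were not run, the deposited unit being RPKM. The steps were tested on simulated data. Depth limits the precision of low genes, and reads without molecular identifiers are not independent.

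The 40 genes, the other lists and the tests were chosen with earlier results of these data known. All 40 genes are named with a level. Library values are given for 13 genes chosen by role and for the 5 with the lowest p in each comparison. From other lists, called genes or else those with the lowest p are named, and further cell type markers beside them. Replicates are separate cultures of pooled mice. Words of 40 bases, the read length of the labels, were compared between GENCODE transcripts, and promoters came from RefSeq.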

Additional observations from a re-analysis of the deposited data

How the results depend on the processing

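For named members, 690 recomputed values kept their direction and side of the threshold, 30 changed sign and 5, all of Cryab, newly passed the threshold. Over all genes, the count of calls for genotype under NX/NG went from 0 to 51 by limma-voom and to 3 with all groups in one fit. After OGD-R it went from 0 to 2 with a pseudocount of 1 RPKM, to 1 by limma-voom and to 4 with all groups in one fit. For OGD-R in Cort+/+ cells the 2 calls went to 0 with a pseudocount of 1 RPKM, every gene above 0, quantile normalization, limma-voom, the replicate block and only the groups compared. In Cort-/- cells the 1 call went to 3 with the pseudocount and to 0 with every gene above 0, limma-voom, the replicate block, a term for low Rn18s-rs5, only the groups compared, and both low libraries left out. Over both genotypes 6 calls went to 14 by limma-voom, 0 with the replicate block, 2 with the term and 0 without both low libraries. For genotype over both environments 27 went to 17 with the pseudocount, 15 with every gene above 0, 16 by quantile normalization, 126 by limma-voom and 3 with the replicate block. The interaction went from 0 to 3 with every gene above 0. The causes were not tested.

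Leaving out 1 library at a time gave 0 to 0 calls for genotype under NX/NG and after OGD-R, 0 to 2 for OGD-R in Cort+/+, 0 to 7 in Cort-/-, 0 to 25 over both genotypes, 6 to 160 for genotype over both environments and 0 to 2 for the interaction. The 160 came without Cort-/- OGD-R replicate 3, and the 25 and the 7 without replicate 1.

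Signs turned in members near 0 for OGD-R over both genotypes. Without both low libraries and with the term, Hspa1b was -0.24 and -0.20 and Hsp90ab1 was -0.0099 and -0.0072. Bag3 was 0.011 by quantile normalization and 0.0013 with the block, and Hsf1 0.0073 by quantile normalization. Leaving out single libraries gave -0.16 to 0.34 for Hspa1b, -0.11 to 0.048 for Hspa8, -0.075 to 0.049 for Hsp90aa1, -0.012 to 0.021 for Hsp90ab1, -0.17 to 0.14 for Hspb1, -0.045 to 0.036 for Bag3 and -0.038 to 0.033 for Hsf1. The Cryab interaction was -0.14 without both low libraries and -0.17 to 1.23 without single libraries, and its genotype change after OGD-R -1.29 to 0.11. Whether replicate numbers pair the samples could not be decided. Of 12 pairs with the same number, 3 had deviations from the group mean correlated above 0.1, with r from -0.53 to 0.19. In a group of 2 libraries these deviations mirror each other, which partly fixes the values. No member was called with the replicate block. The shorter promoter element was in 40.9% of member promoters against 15.9% for the longer. The setting without both low libraries was added once the data had been seen. With 2 Cort-/- libraries a group, the intervals of Cryab and Hspa1b after OGD-R span nearly 1 on the log2 scale to either side, so smaller genotype differences were not detectable there.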
